A study of Mus musculus with 36 samples.

Results

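Naive wild-type (WT) CD4+ T cells of the HP1g mouse line were compared by RNA-seq with conventional CD4+ T cells (Tconv) that descended from such cells and had met alloantigen in a grafted host. Cells recovered 3 weeks after transfer held less of most transcripts of the resting, recirculating state than naive cells. They held more of those of a Th1-type effector with granzymes, killer-cell lectin receptors, receptors for inflammatory chemokines and a mitotic programme. The comparison used 6 of the 36 libraries of the series, chosen by their labels: 3 Naive_HP1g_WT and 3 Tconv_HP1g_WT libraries.

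Both groups came from mice of mixed 129/Sv and C57BL/6 background that were homozygous for a floxed Hp1g allele (the gene Cbx3) and lacked Cd4-cre, so that HP1γ was still made. They were the littermates of the Cd4-cre carriers, which served as knock-out (KO) mice. The naive cells were CD4+CD44-/low cells isolated from spleen by negative selection on beads, whatever their T cell receptor. For the Tconv, naive cells of this kind were injected into lethally irradiated CD45.1+ B6 hosts together with equal parts of syngeneic C57BL/6 and semi-allogeneic B6D2F1 bone marrow depleted of T and NK cells, without regulatory T cells (Treg). After 3 weeks, CD4+ cells of the host spleens were enriched on beads and sorted as CD45.1-CD45.2+Thy1.1-H-2Kb+H-2Kd- cells bearing TCR Vβ6. This chain recognises the superantigen of the mammary tumour virus MMTV-7 in the B6D2F1 graft. Activation, 3 weeks in a lymphopenic irradiated host, the Vβ6 sort and the change from bead isolation to cell sorting all separate the groups and cannot be told apart. No label states that the 3 libraries of a group came from separate animals, so p-values measure the spread between these libraries, which may be technical.

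Naive CD4+ T cells circulate between blood and lymphoid organs, which they enter with the help of CCR7 and leave along sphingosine 1-phosphate. The transcription factors TCF1, LEF1, FOXO1 and KLF2 keep them quiescent and ready to respond. When the T cell receptor, costimulatory receptors and cytokines signal together, the cells divide and become helper cells. Th1 cells, driven by T-bet, make interferon-γ and are the usual helper type in the rejection of allogeneic cells.

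The libraries held 38191660 to 56651278 estimated counts, and 20938 to 21311 genes were detected in naive cells against 22257 to 22758 in Tconv. At these depths 3 counts in a library equal 0.0573 to 0.0746 CPM, the unit used below for levels (counts scaled to the library total, with the TMM factors of edgeR). The sort was checked on the β-chain V segments: Trbv19, which encodes Vβ6, gave 85.4%, 68.9% and 84.5% of Trbv counts in Tconv and 8.81%, 8.73% and 9.51% in naive cells. In Tconv replicate 2 a further 26.3% came from Trbv17 (7.91% and 4.78% in the other two). The 10 T cell markers tested, among them Cd3e and Cd4, were not called in either direction. Markers of other cells differed between libraries. Summed erythroid markers (8 genes) reached 4860 CPM in Tconv replicate 1, against 74.7 and 203 CPM in the other Tconv and 18.2 to 60 CPM in naive cells. Summed neutrophil markers (10 genes) stood at 539, 10.7 and 6.09 CPM in Tconv and 0.14 to 0.249 CPM in naive cells. Macrophage markers (10 genes, 9 called higher) summed to 4.26 to 7 CPM in naive cells and 29.5 to 78.6 CPM in Tconv, and dendritic cell markers (12 genes) to 15.1 to 20.8 CPM and 75.5 to 169 CPM. Of these 12, 6 were too low to be tested. In Tconv, Cd74 alone held 46, 62.5 and 89.9 CPM. Itgax, which is also listed with migration and adhesion genes below, held 16, 23.4 and 19.8 CPM. B cell markers (10 genes) summed to 3.69 to 5.85 CPM and 1.38 to 1.9 CPM, and Pax5 was at 0 in all Tconv. The CD8 pair Cd8a and Cd8b1 summed to 19.8 to 28 CPM in naive cells and 3.82 to 6.44 CPM in Tconv. The part of these cells in the differences below was not tested. In bulk RNA, fewer cells of a type and less RNA per cell cannot be told apart.

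Naive and activated cells differed in many genes. Of 15812 tested, 2371 (15%) were higher and 1352 (8.55%) lower in Tconv at a Benjamini-Hochberg adjusted p under 0.05 in edgeR's quasi-likelihood test and a log2 fold change (log2FC, Tconv minus naive) beyond 1 in either direction, or 23.5% in all. DESeq2 called 14.2% of 19905 genes higher and 7.74% lower. A gene past both limits is said to be called. Counts of list members below stand against the edgeR shares of 15% higher and 8.55% lower over all genes tested. The median log2FC over all genes tested was -0.03. The rises were larger than the falls, with a median size of 2.94 among genes called higher and 1.76 among those called lower. Beyond a log2FC of 5, 637 genes were higher and 85 lower. The 3 libraries of each group did not overlap with the other group for 8237 genes, 52.1% of those tested, with 4328 (27.4%) higher and 3909 (24.7%) lower in Tconv. By gene type, 16.3% of protein-coding genes were called higher and 7.68% lower, against 5.72% and 11.3% of pseudogenes.

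**Figure D1:**
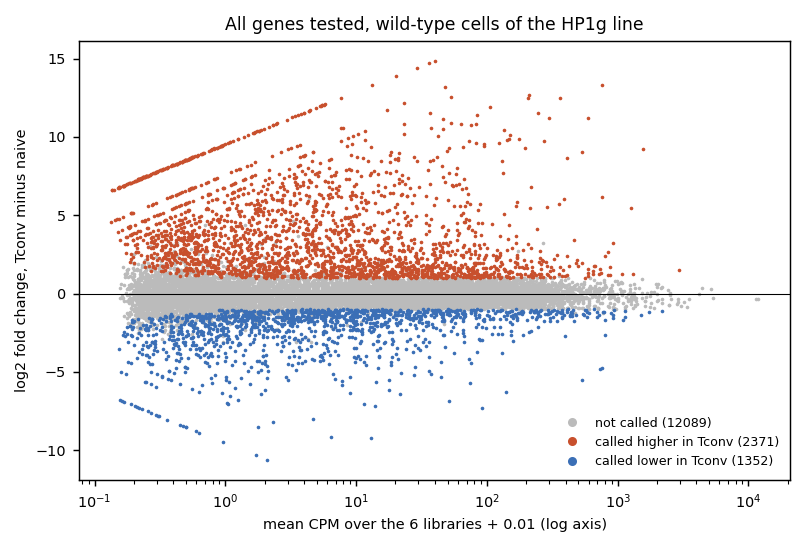
Log2 fold change of Tconv against naive cells (vertical axis) by the mean CPM over the 6 libraries (horizontal log axis, 0.01 added), 1 point for each of the 15812 genes tested. The 2371 genes called higher reach larger changes than the 1352 called lower.

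At the upper end stood genes that naive cells hardly expressed. There were 52 genes with at most 3 counts in each naive library and at least 5 CPM in each Tconv library. Of these 47 were protein coding, and all were called higher. The reverse pattern, with the same limits for the opposite groups, held for 2 genes. Klrg1, an inhibitory lectin receptor of terminal effector cells (chr6:122246981-122259914 in GRCm39), had no count in the 3 naive libraries and 84.1, 85.4 and 69.1 CPM in the Tconv libraries, a level at least 1170-fold higher, taking 3 counts per library as the floor. The integrin α1 chain Itga1 (chr13:115089632-115238677) had 0, 0.02 and 0 CPM in naive cells and 58.3, 127 and 104 CPM in Tconv (ratio 12800, counting interval 2290 to 504000). The chemokine Ccl1 had no naive count and 40.1, 69.4 and 11.8 CPM in Tconv (at least 595-fold higher, adjusted p = 0.000899, but 0.0551 without the filter on low counts). Lilrb4b and Lilrb4a, inhibitory receptors best known from myeloid cells, rose to 1116, 2173 and 1301 CPM and 533, 999.8 and 632 CPM, from below 0.3 CPM in each naive library. They are closely related neighbours on chromosome 10, so the division of reads between them is uncertain. Ifitm2, an interferon-inducible membrane protein, stood at 0.0946, 0.08 and 0.0249 CPM in naive cells and 506, 465 and 259 CPM in Tconv (log2FC 12.51 ± 0.49, adjusted p = 3.76e-06). The serpin Serpina3f had 0, 0 and 0.0498 CPM in naive cells and 50.8, 133 and 138 CPM in Tconv. Of the 12 most raised genes by the naming rule, 2 were led by 1 library: the neutrophil granule gene Ngp, at 170.5, 2.93 and 0.356 CPM in Tconv and with no naive count, and Fgd5, at 1.49, 29.1 and 3.79 CPM. The call of Ngp (adjusted p = 0.0497) was lost with RLE size factors (0.0501), without the filter on low counts (0.363) and without any 1 of the naive libraries (0.133 to 0.248), and that of Fgd5 (adjusted p = 0.0105) without the filter (0.213) or without naive replicate 2 (0.0655). Ngp moved with the neutrophil markers of Tconv replicate 1 given above.

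At the lower end stood Dntt, the template-independent polymerase of receptor rearrangement that fades as recent thymic emigrants age (chr19:41017714-41047964), with 11.8, 14.4 and 12 CPM in naive cells and 0.0573, 0 and 0 CPM in Tconv (ratio 635, counting interval 217 to 3080, naive over Tconv). The sodium pump subunit Atp1b1 (chr1:164264678-164285957) fell from 157, 210.2 and 184 CPM to 1.32, 0.906 and 1.25 CPM (log2FC -7.31 ± 0.25, adjusted p = 2.97e-06). All 3 naive libraries were above 150 CPM and all 3 Tconv libraries below 1.5 CPM. Sox4, a transcription factor of immature T cells, fell from 46.9, 40 and 42.4 CPM to 1.17, 0.0647 and 0.257 CPM (log2FC -6.41 ± 0.76, adjusted p = 0.000558). Adh1, the muscle-type AMP deaminase Ampd1, Cnn3, Dapk1, Xkrx, the sialyltransferase St8sia6, Arhgap29 and Tmem108 had log2FC between -8 and -5.64.

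The programme of naive cells was reduced in nearly all its members. Of 32 genes of naive identity tested, 27 were called lower and 1 higher, with a median log2FC of -1.8. Ccr7 (chr11:99035022-99045911), the receptor that guides naive cells into lymph nodes, fell from 1310, 1557 and 1561 CPM to 92.8, 46.1 and 26.1 CPM (log2FC -4.75 ± 0.47, adjusted p = 0.000233). Tconv replicate 1 kept the most and replicate 3 the least, without overlap with the naive libraries.

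The transcription factors of quiescence fell less steeply. Lef1 went from 1257, 1535 and 1316 to 256, 222 and 180.4 CPM (log2FC -2.64 ± 0.2, adjusted p = 6.49e-05). Tcf7, which encodes TCF1, went from 1783, 1312 and 1982 to 584, 509.6 and 480.5 CPM (log2FC -1.69 ± 0.21, adjusted p = 0.000649), so that all Tconv libraries still held over 450 CPM. Bach2, a repressor of effector genes, fell from 138, 89.2 and 132 to 18.5, 14.3 and 9.92 CPM (log2FC -3.07 ± 0.28, adjusted p = 0.000161), and Klf2, which drives transcription of S1pr1, from 935, 1198 and 999.8 to 484, 334 and 388 CPM (log2FC -1.38 ± 0.2, adjusted p = 0.00153). The chromatin organiser Satb1 had 1293, 1050 and 1342 CPM in naive cells and 557, 395 and 201 CPM in Tconv (log2FC -1.68 ± 0.35, adjusted p = 0.00805). The deepest falls of the list were those of Dapl1, a gene of unclear function in T cells (168, 482 and 186 to 5.31, 3.84 and 1.52 CPM, log2FC -6.29 ± 0.65, adjusted p = 0.000266), and Igfbp4, which binds insulin-like growth factors (1265, 801 and 1093 to 36.9, 21.1 and 10.1 CPM, log2FC -5.53 ± 0.51, adjusted p = 0.000155). Cd27, a costimulatory receptor lost by terminal effectors, fell from 332, 445 and 310.2 to 80.3, 63.1 and 68 CPM (log2FC -2.36 ± 0.2, adjusted p = 0.000115).

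The receptors for survival and exit were not called. Il7r, the receptor for the survival cytokine IL-7, had 369.8, 477 and 456 CPM in naive cells and 485, 446 and 359 CPM in Tconv, and the groups overlapped (log2FC -0.01 ± 0.18, adjusted p = 0.962). S1pr1, the exit receptor for sphingosine 1-phosphate, had 1237, 1023 and 1321 and 928, 601 and 445 CPM. Its log2FC of -0.86 ± 0.28 passed the test (adjusted p = 0.0478) but not the limit on size, and was -1.19 without Tconv replicate 1. Ccr9, the gut-homing receptor, was the member called higher, at 6.65, 5.82 and 7.64 CPM in naive cells and 13.7, 36.5 and 30.2 CPM in Tconv (log2FC 2 ± 0.35, adjusted p = 0.00379).

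**Figure D2:**
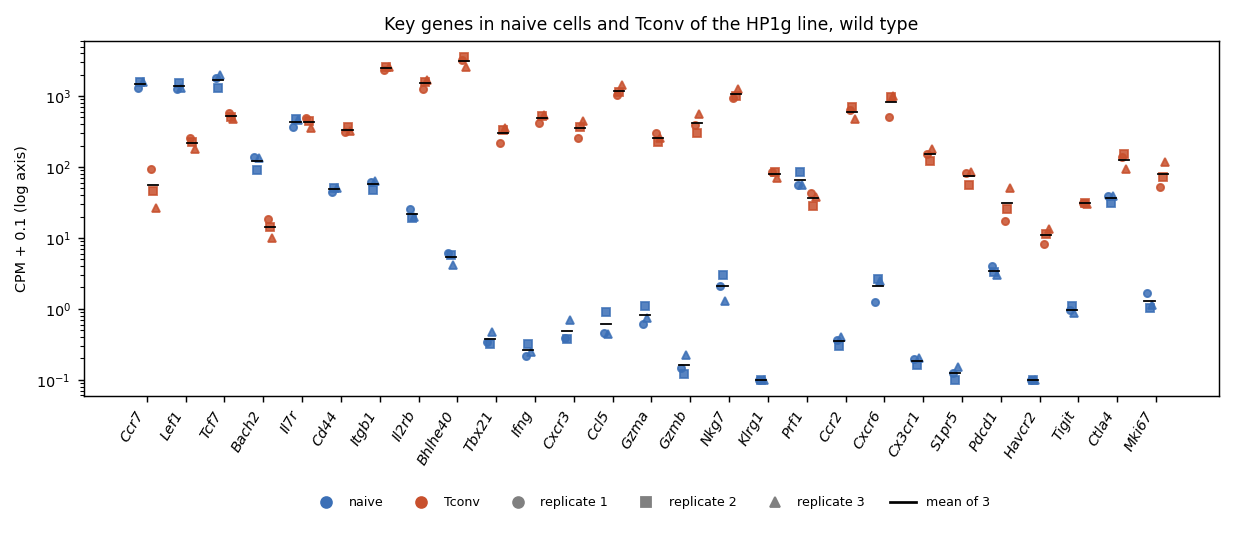
Level of 27 genes in each library, as CPM + 0.1 on a log axis; blue marks are naive and red marks Tconv libraries, the symbol gives the replicate and the bar the mean of 3. The first 4 genes are lower in Tconv, Il7r and Prf1 were not called, and Klrg1 and Havcr2 have no count in the naive libraries.

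Genes of effector and memory cells were higher almost without exception, with 31 of 33 called higher, none lower and a median log2FC of 3.4. Bhlhe40 (chr6:108636626-108644502), a transcription factor that sustains inflammatory cytokines and restrains IL-10, had 5.99, 5.56 and 4.06 CPM in naive cells and 3226, 3570 and 2583 CPM in Tconv (log2FC 9.23 ± 0.3, adjusted p = 2.97e-06). Itgb1, the β1 chain shared by the integrins that bind matrix, rose from 61.4, 47.1 and 64.3 to 2344, 2577 and 2559 CPM (log2FC 5.44 ± 0.22, adjusted p = 3.76e-06). For both the 3 Tconv libraries lay close together and far from the naive ones.

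Cd44, the hyaluronan receptor by which memory cells are told from naive ones, rose from 44.4, 49.9 and 51.2 to 309, 368 and 319.8 CPM (log2FC 2.78 ± 0.16, adjusted p = 1.93e-05). As naive cells were selected for low CD44, this difference was set in part by the isolation. The calcium-binding protein gene S100a4 went from 0.142, 0.1 and 0.0249 to 148, 153 and 198 CPM (log2FC 10.8 ± 0.39, adjusted p = 3e-06) and the galectin gene Lgals3 from 0.213, 0.28 and 0.0746 to 278, 294 and 234 CPM (log2FC 10.42 ± 0.38, adjusted p = 3.17e-06). These genes were near the detection floor in the naive libraries and at a like level in the 3 Tconv libraries. Galectin-1, Lgals1, had 43.4, 140.2 and 58.6 CPM in naive cells, highest in replicate 2, and 909, 818 and 832 CPM in Tconv (log2FC 3.4 ± 0.44, adjusted p = 0.000826). The scaffold gene Ahnak rose by log2FC 6.05 ± 0.23 (adjusted p = 3.76e-06).

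Regulators of terminal differentiation rose together with these. Zeb2, a repressor that acts with T-bet, went from 0.071, 0.08 and 0.0249 to 94.5, 79.5 and 101 CPM (log2FC 10.51 ± 0.31, adjusted p = 2.97e-06). Id2, an inhibitor of E proteins, went from 179.9, 338 and 182 to 1246, 1366 and 1795 CPM (log2FC 2.65 ± 0.31, adjusted p = 0.000471). Prdm1, which encodes BLIMP-1, rose from 4.9, 4 and 4.65 to 49.8, 61.7 and 80.8 CPM (log2FC 3.83 ± 0.23, adjusted p = 2.48e-05). The groups did not overlap for these 3 genes.

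The Th1 list had 19 of 22 genes called higher, 1 lower and a median log2FC of 5.94. Tbx21, which encodes T-bet, had 0.237, 0.22 and 0.373 CPM in naive cells and 219, 336 and 350.4 CPM in Tconv (log2FC 10.09 ± 0.35, adjusted p = 2.99e-06). Ifng (chr10:118276951-118281797), the main Th1 cytokine, rose from 0.118, 0.22 and 0.149 to 412, 528 and 537 CPM (log2FC 11.52 ± 0.31, adjusted p = 2.97e-06). The chemokine Ccl5 rose from 0.355, 0.8 and 0.348 to 1031, 1126 and 1430 CPM (log2FC 11.19 ± 0.43, adjusted p = 3.76e-06). All naive libraries were below 1 CPM for the 3 genes, and Tconv replicate 1 was the lowest of its group.

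Receptors that feed the Th1 programme followed. Il12rb2, the inducible chain of the IL-12 receptor, went from 0.0237, 0.14 and 0.373 to 29, 46.6 and 45.5 CPM (log2FC 7.83 ± 0.6, adjusted p = 6.99e-05). Of the 2 chains of the IL-18 receptor, Il18r1 rose from 19.1, 19.8 and 20.7 to 103, 117 and 114 CPM (log2FC 2.49 ± 0.15, adjusted p = 1.95e-05), and Il18rap from 0.331, 0.18 and 0.448 to 209, 307 and 362 CPM (log2FC 9.86 ± 0.41, adjusted p = 4.46e-06). Naive cells thus held the first chain at about 20 CPM and the second below 0.5 CPM. Fasl, a ligand that triggers death in target cells, had 27, 52.8 and 30.8 CPM in naive cells and 286, 260.5 and 202 CPM in Tconv (log2FC 2.76 ± 0.29, adjusted p = 0.000304). The exception was lymphotoxin α, Lta, which fell from 26.5, 36.8 and 27.5 to 12.3, 8.48 and 8.62 CPM (log2FC -1.63 ± 0.23, adjusted p = 0.00124).

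The cytotoxic list had 17 of 21 genes called higher and none lower (median log2FC 4.5). Gzmb (chr14:56496295-56499717), a serine protease of cytotoxic granules, rose from 0.0473, 0.02 and 0.124 to 388, 304 and 564 CPM (log2FC 12.69 ± 0.52, adjusted p = 4.08e-06), and Gzma from 0.52, 1 and 0.647 to 298, 226 and 256 CPM (log2FC 8.47 ± 0.31, adjusted p = 3.32e-06). The granule membrane gene Nkg7 went from 1.96, 2.9 and 1.19 to 952, 987 and 1255 CPM (log2FC 9.03 ± 0.41, adjusted p = 5.95e-06). Perforin, Prf1, through which granzymes enter the target, did not rise with them. It had 55.9, 85.3 and 54.9 CPM in naive cells and 43.4, 28.3 and 38 CPM in Tconv, with all Tconv libraries below all naive ones, and a log2FC of -0.84 ± 0.24 (adjusted p = 0.0308) that was within the limit on size. Gzmk, a granzyme of memory cells, had 0.52, 0.12 and 0.174 CPM in naive cells and 34.6, 39.9 and 52.8 CPM in Tconv (log2FC 7.29 ± 0.5, adjusted p = 4.11e-05). Lectin receptors of NK cells were raised with Klrg1: Klrc1, the NKG2A chain, had 1 count in the naive libraries together and 40.9, 62.2 and 35.2 CPM in Tconv (ratio 6110, counting interval 1100 to 241000), and Klre1 none and 13, 6.67 and 6.5 CPM (at least 129-fold higher). Summed NK cell markers (6 genes, Eomes among them) were at 3.36 to 6.67 CPM in naive cells and 22 to 38.1 CPM in Tconv, while the defining gene Ncr1 was at most 1.17 CPM.

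Counts of a gene depend on its length, so levels were compared between genes as the group mean of CPM per kb of exon. Exon length was that of all annotated exons of a gene merged. It can exceed the length of the transcripts present, so the order of genes is approximate. Among the effector genes named above, the Tconv level was 1160 for Ccl5 and 1160 for Nkg7, with Bhlhe40 at 492, Cxcr6 at 425, Itgb1 at 418, Ifng at 380, Gzmb at 291 and Cxcr3 at 205. In naive cells Ccr7 stood at 743, Tcf7 at 441 and Lef1 at 147.

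Genes of other helper types were higher as well. The Th2 list had 11 of 14 genes called higher and none lower (median log2FC 6.48, or 4.82 with genes of no naive count at their bound). Gata3, the Th2 regulator that all T cells express, had 101, 123 and 111 CPM in naive cells and 537, 418 and 269.9 CPM in Tconv (log2FC 1.87 ± 0.26, adjusted p = 0.00119). Il4 had 0.0473, 0 and 0 CPM in naive cells and 17.1, 19.5 and 8.95 CPM in Tconv (ratio 1010, counting interval 279 to 8310). Il5 and Il13 stayed below 2 CPM in each Tconv library, with 0.363, 1.32 and 1.56 CPM and 0.458, 0.475 and 0.356 CPM. Il1rl1, the receptor for the alarmin IL-33, rose from 0.0946, 0 and 0.0249 to 79.2, 145 and 52.5 CPM (log2FC 11.15 ± 0.72, adjusted p = 3.14e-05). Areg, an epidermal growth factor of tissue repair, went from 0.331, 0.44 and 0.124 to 48.8, 31.4 and 7.25 CPM (log2FC 6.57 ± 0.81, adjusted p = 0.000691), with Tconv replicate 3 lowest. Pparg had 1 naive count and 3.19, 10.4 and 7.61 CPM in Tconv (ratio 937, counting interval 168 to 37000).

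The Th17 list had 9 of 12 genes called higher and 1 lower (median log2FC 5.64, or 4.63 with bounds). Il17a had no naive count and 5.33, 0.906 and 3.44 CPM in Tconv (at least 47.5-fold higher), and Il22 no naive count and 10.2, 3.82 and 6.36 CPM (at least 99.9-fold higher). Per length, the mean Tconv level of Il17a was 2.75 CPM per kb, against 380 for Ifng. The aryl hydrocarbon receptor Ahr rose from 2.29, 1.7 and 1.97 to 31.6, 77.7 and 42.9 CPM (log2FC 4.67 ± 0.38, adjusted p = 8.79e-05). Il1r1 rose from 0.0473, 0 and 0.0498 to 20.5, 10.2 and 7.8 CPM (log2FC 8.6 ± 0.71, adjusted p = 9.58e-05). Il17f was too low to be tested (1.43, 0.0216 and 0.178 CPM in Tconv). Il6ra, the receptor for IL-6, was the member called lower, from 156, 157 and 175 to 36, 14.3 and 12.5 CPM (log2FC -2.96 ± 0.41, adjusted p = 0.00112).

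Genes of follicular helper T cells (Tfh) moved both ways, with 6 of 13 called higher, 2 lower and a median log2FC of 0.16. Bcl6, their lead regulator, had 13.2, 14.7 and 12.7 CPM in naive cells and 8.4, 6.6 and 8.77 CPM in Tconv (log2FC -0.77 ± 0.19, adjusted p = 0.0181, within the limit on size). Il21 had 1 naive count and 7.04, 5.03 and 10.2 CPM in Tconv (ratio 983, counting interval 176 to 38800). Icos, a costimulatory receptor of helper cells, rose from 85.7, 99.4 and 93.8 to 324, 299 and 248 CPM (log2FC 1.64 ± 0.17, adjusted p = 0.00025), and Cxcr5, which leads cells to follicles, from 3.41, 2 and 3.13 to 14.6, 5.59 and 11.8 CPM (log2FC 1.91 ± 0.39, adjusted p = 0.00771). Il6st, the signalling chain for IL-6, fell from 234, 88.7 and 242 to 35.2, 27.4 and 31.5 CPM (log2FC -2.58 ± 0.37, adjusted p = 0.00143). Pou2af1 fell by log2FC -2.29 ± 0.34 (adjusted p = 0.00163).

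Of 15 genes associated with Treg, 9 were called higher and 2 lower, without Foxp3, which defines these cells. Foxp3 had 5.77, 7.42 and 4.7 CPM in naive cells and 8.53, 4.08 and 1.25 CPM in Tconv, and the groups overlapped (log2FC -0.37 ± 0.59, adjusted p = 0.662). Several members that rose are also known from effector cells. Il2ra, the high-affinity chain of the IL-2 receptor, went from 2.7, 2.98 and 2.66 to 41.7, 45.8 and 31.6 CPM (log2FC 3.83 ± 0.21, adjusted p = 1.57e-05), and the costimulatory receptor OX40, Tnfrsf4, from 4.66, 6.62 and 3.68 to 163, 152 and 86.5 CPM (log2FC 4.74 ± 0.34, adjusted p = 5.27e-05). Nrp1, a semaphorin co-receptor, rose from 3.41, 2.02 and 3.08 to 175, 141 and 86.7 CPM (log2FC 5.56 ± 0.35, adjusted p = 2.84e-05). Gpr83, which marks Treg, fell from 13.1, 11.9 and 10.7 to 0.649, 0.302 and 0.593 CPM (log2FC -4.52 ± 0.33, adjusted p = 5.88e-05). The second member called lower, the folate receptor Izumo1r (log2FC -1.29 ± 0.29, adjusted p = 0.0112), fell short of the limits without naive replicate 2 (-0.92, 0.00692) or Tconv replicate 2 (-1.15, 0.0526). The call of Ikzf2 (6.53, 4.44 and 4.16 to 7.06, 11.1 and 19.6 CPM, adjusted p = 0.0341) was lost without any one of naive replicates 2 and 3 and Tconv replicates 2 and 3, at adjusted p from 0.0695 to 0.106. It was also lost with a term for replicate number in the fit (0.0555).

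Inhibitory receptors and genes linked to dysfunction had 14 of 23 members called higher and 1 lower (median log2FC 1.8). Pdcd1, which encodes PD-1, had 3.98, 3.22 and 2.91 CPM in naive cells and 17.4, 25.2 and 50.9 CPM in Tconv (log2FC 3.21 ± 0.41, adjusted p = 0.000816), highest in replicate 3. Havcr2, which encodes TIM-3, had no naive count and 8.04, 11.3 and 13.1 CPM in Tconv (at least 159-fold higher). Tigit rose from 0.852, 1 and 0.771 to 31.2, 31 and 30 CPM (log2FC 5.13 ± 0.2, adjusted p = 3.76e-06). The competitor of CD28, Ctla4, went from 39.4, 30.6 and 39.3 to 136, 151 and 94.4 CPM (log2FC 1.8 ± 0.22, adjusted p = 0.000602). Entpd1, which encodes the ectonucleotidase CD39, went from 0.118, 0.24 and 0.249 to 76.7, 76.2 and 68 CPM (log2FC 8.48 ± 0.28, adjusted p = 2.97e-06). Lag3, a ligand of MHC class II, was low in both groups, at 0.0946, 0.02 and 0.0746 and 0.84, 1.1 and 3.02 CPM (log2FC 4.7 ± 0.74, adjusted p = 0.00223). Tox, the regulator of exhausted CD8 T cells, was the member called lower, from 91, 86.2 and 96.6 to 28.9, 28.2 and 41.8 CPM (log2FC -1.47 ± 0.19, adjusted p = 0.000936). Its relative Tox2 rose from 0.71, 0.12 and 0.274 to 15.1, 8.37 and 25.4 CPM (log2FC 5.48 ± 0.68, adjusted p = 0.000707). Without naive replicate 1, naive replicate 2 or Tconv replicate 3 the list had 2 members called lower.

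Of 20 costimulatory receptors and ligands, 10 were called higher and 2 lower. Cd28, the primary costimulatory receptor, had 422, 469 and 483 CPM in naive cells and 619.5, 708 and 531 CPM in Tconv (log2FC 0.44 ± 0.17, adjusted p = 0.0887), and the ligand Cd40lg 172, 292 and 215 and 191, 304 and 263 CPM (adjusted p = 0.657). Both were expressed in the 2 groups, with overlap for Cd40lg. Slamf7, a receptor of activated lymphocytes, rose from 2.18, 2.24 and 2.54 to 78.2, 107 and 144 CPM (log2FC 5.56 ± 0.28, adjusted p = 9.61e-06). The ligand RANKL, Tnfsf11, went from 8.07, 9.8 and 9.13 to 148, 54.9 and 33.3 CPM (log2FC 3.13 ± 0.52, adjusted p = 0.00289), and Tnfsf14 (LIGHT) from 0.071, 0.34 and 0.0995 to 9.91, 9.17 and 17.9 CPM (log2FC 6.11 ± 0.59, adjusted p = 0.000197). The tetraspanin Cd81 fell from 29, 39.3 and 29.7 to 5.19, 7.08 and 12.5 CPM (log2FC -1.98 ± 0.33, adjusted p = 0.00287). Tnfrsf9, which encodes the early activation receptor 4-1BB, had 17.3, 13.6 and 15.4 CPM in naive cells and 17.6, 10.7 and 9.72 CPM in Tconv (adjusted p = 0.44).

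Most receptors that direct cells to inflamed tissue were higher. Of 17 chemokine receptors tested, 13 were called higher and 2 lower, with a median log2FC of 6.6. The median was 4.69 with DESeq2 and 4.37 without the filter on low counts, which both test more genes. Ccr2, the receptor for monocyte chemoattractants, had 0.26, 0.2 and 0.299 CPM in naive cells and 633, 691 and 477 CPM in Tconv (log2FC 11.21 ± 0.31, adjusted p = 2.97e-06). Cxcr6, the receptor for the membrane-bound chemokine CXCL16, rose from 1.14, 2.54 and 2.39 to 511, 964 and 992 CPM (log2FC 8.66 ± 0.48, adjusted p = 1.57e-05), and Cx3cr1, the fractalkine receptor, from 0.0946, 0.06 and 0.0995 to 153, 123 and 180.4 CPM (log2FC 10.79 ± 0.31, adjusted p = 2.97e-06). The Th1 receptor Cxcr3 stood at 0.284, 0.28 and 0.597 CPM in naive cells and 259.9, 362 and 441 CPM in Tconv (log2FC 9.85 ± 0.41, adjusted p = 4.51e-06). Tconv replicate 1 was the lowest of its group for Cxcr3 and Cxcr6. Cxcr4, the receptor for the bone marrow chemokine CXCL12, was not called, with 45, 73 and 49.6 CPM in naive cells and 43, 16.1 and 15.3 CPM in Tconv (log2FC -1.17 ± 0.42, adjusted p = 0.0668). It was called lower without Tconv replicate 1 (log2FC -1.83, adjusted p = 0.00308) and by DESeq2 (-1.17, 0.0188).

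Among 21 genes of migration and adhesion, 12 were called higher and 2 lower, or 4 lower without Tconv replicate 1. S1pr5, a sphingosine 1-phosphate receptor of effector and NK cells, had 3 counts in the naive libraries together and 81.2, 56.4 and 84.5 CPM in Tconv (ratio 3270, counting interval 1120 to 15900). Gcnt1, a glycosyltransferase that builds selectin ligands, rose from 0.0473, 0.06 and 0.0249 to 34.8, 19.2 and 6.64 CPM (log2FC 8.73 ± 0.82, adjusted p = 0.000174). The integrin chain Itgae, CD103, which holds cells in epithelium, varied widely among Tconv, with 0.331, 0.12 and 0.124 CPM in naive cells and 175, 66.6 and 6.62 CPM in Tconv (log2FC 8.75 ± 1.32, adjusted p = 0.00181). Its adjusted p was 0.0552 without naive replicate 2. Itga6 fell from 233, 157 and 246 to 77.9, 65.9 and 65.1 CPM (log2FC -1.61 ± 0.21, adjusted p = 0.000849). The early activation marker Cd69, which retains cells in lymphoid tissue, had 621, 1072 and 730.5 CPM in naive cells and 1531, 1436 and 850.3 CPM in Tconv with overlap (adjusted p = 0.126).

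Of 37 genes of the T cell receptor pathway tested, 7 were called higher, 1 was lower and 29 were not called (median log2FC 0.33), a share near the 23.5% called over all genes. Cd3e had 849, 1190 and 879 CPM in naive cells and 853, 807 and 894 CPM in Tconv (log2FC -0.19 ± 0.19, adjusted p = 0.463), and Cd4 718, 605 and 769 and 903, 1010 and 916 CPM (log2FC 0.44 ± 0.17, adjusted p = 0.0813). The members that rose include some of the early response genes. Egr1 went from 247, 209.8 and 298 to 1748, 1470 and 826 CPM (log2FC 2.42 ± 0.3, adjusted p = 0.000725) and Fosb from 16.9, 22.3 and 11.2 to 202, 141 and 88.3 CPM (log2FC 3.09 ± 0.37, adjusted p = 0.000561). Egr2, a regulator linked to anergy, had 20.7, 17.6 and 21.3 CPM in naive cells and 69.2, 23.5 and 21.8 CPM in Tconv and was not called (adjusted p = 0.136). In these 3 genes Tconv replicate 1 was highest and replicate 3 the lowest. Jun, Junb, Myc and Fos were not called. By group mean, Jun went from 405 to 209 CPM per kb of exon and Junb from 1780 to 1730. Myc went from 47.7 to 29.9 and Fos from 349 to 566. Irf8 rose from 9.39, 8.02 and 9.18 to 23.1, 28.4 and 50.9 CPM (log2FC 1.94 ± 0.3, adjusted p = 0.00212). Irf4, a factor that scales with receptor signal, had 8.94, 3.42 and 18.8 CPM in naive cells and 72.2, 47 and 25.9 CPM in Tconv (log2FC 2.22 ± 0.61, adjusted p = 0.0262). This call was lost without naive replicate 1 or 2 or Tconv replicate 1 or 2, at adjusted p from 0.056 to 0.0812. The same held without the filter on low counts (0.156) and with a term for replicate number in the fit (0.0615). Dgka, a brake on the receptor signal, was the member called lower (1397, 963 and 1465 to 669.7, 617 and 543 CPM, log2FC -1.06 ± 0.21, adjusted p = 0.00623), and its log2FC came within the limit without naive replicate 3 (-0.96) or Tconv replicate 3 (-0.98). The list then had none called lower, and it had 2 without naive replicate 1 or Tconv replicate 2.

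Of 32 cytokine receptors, JAK kinases and SOCS genes, 14 were called higher and 4 lower, or 2 lower without the filter on low counts or without Tconv replicate 2. Receptors of the IL-2 family and their feedback genes were among those that rose. Il2rb, the chain shared by the IL-2 and IL-15 receptors, rose from 25.3, 18.9 and 19.9 to 1247, 1591 and 1679 CPM (log2FC 6.14 ± 0.24, adjusted p = 3.76e-06). Of the STAT5-induced inhibitors, Cish rose from 13, 13.5 and 9.36 to 683, 619.7 and 377 CPM (log2FC 5.55 ± 0.31, adjusted p = 1.61e-05) and Socs2 from 0.071, 0.42 and 0.224 to 140.2, 262 and 162 CPM (log2FC 9.57 ± 0.54, adjusted p = 1.68e-05). Socs3, an inhibitor of IL-6 and IL-12 signalling, went from 207, 137 and 165 to 507, 394 and 324 CPM (log2FC 1.27 ± 0.23, adjusted p = 0.00433). Socs1 passed the test but not the limit on size, with 71.8, 94.5 and 60.7 and 135, 134 and 127 CPM (log2FC 0.8 ± 0.19, adjusted p = 0.0141).

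The chains of the interferon-γ receptor parted. Ifngr1, the ligand-binding chain, rose from 202, 289.9 and 193 to 708, 870 and 702 CPM (log2FC 1.74 ± 0.21, adjusted p = 0.000682). Ifngr2, the signalling chain, went from 145, 172 and 141 to 44.3, 15.4 and 1.88 CPM (log2FC -2.9 ± 0.88, adjusted p = 0.0383), with no overlap but a wide spread among Tconv. Its call was lost without any 1 of the 3 naive libraries or Tconv replicate 2, at adjusted p from 0.0844 to 0.159. It was also lost without the filter on low counts (0.218) and with a term for replicate number in the fit (0.122). Tgfbr2, the type II receptor of TGFβ, was not called (543, 285 and 557 and 368, 391 and 369 CPM, adjusted p = 0.418). The co-receptor Tgfbr3 fell from 114, 58.8 and 130.5 to 32.5, 12.6 and 5.36 CPM (log2FC -2.59 ± 0.62, adjusted p = 0.0156). Its adjusted p was 0.0629 without Tconv replicate 2 and 0.125 without the filter on low counts.

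Of 34 interferon-stimulated genes 4 were called higher, 2 lower and 28 were not called, with a median log2FC of 0.02. This share is near the 23.5% called over all genes. Ifit1 had 36.4, 87.3 and 32.9 CPM in naive cells and 27, 59.1 and 66.2 CPM in Tconv (log2FC -0.04 ± 0.45, adjusted p = 0.955), and Irf7 84.5, 104 and 76.6 and 118, 135 and 135 CPM (log2FC 0.55 ± 0.17, adjusted p = 0.0397, within the limit on size). For Ifit1 naive replicate 2 lay above all other libraries, and the groups overlapped. Mx1, a GTPase that restricts viruses, rose from 0.615, 0.62 and 0.498 to 14.5, 26.1 and 29.4 CPM (log2FC 5.33 ± 0.34, adjusted p = 3.08e-05), and Oas3, which senses double-stranded RNA, from 9.72, 9.86 and 11.4 to 82.5, 82.5 and 77.6 CPM (log2FC 2.97 ± 0.15, adjusted p = 1.17e-05). Oasl1, its catalytically inactive relative, fell from 7.12, 14.8 and 6.64 to 1.53, 2.67 and 2.96 CPM (log2FC -1.99 ± 0.4, adjusted p = 0.00724). Isg15, a ubiquitin-like modifier, had 10.3, 30.8 and 8.83 CPM in naive cells and 17.2, 19.5 and 23.8 CPM in Tconv (adjusted p = 0.674), and was called higher without naive replicate 2 (log2FC 1.08, adjusted p = 0.00481). Without that library 7 members were called higher and 1 lower, with a median of 0.21. Without Tconv replicate 1 the counts were 5 and 1.

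Of the 16 interferon-induced GTPases 2 were called higher, 1 lower and 13 were not called, again near the share over all genes. Gbp3 rose from 15.4, 13.6 and 12.5 to 60.6, 83.3 and 116 CPM (log2FC 2.65 ± 0.26, adjusted p = 0.000205) and the very large GTPase Gvin1 from 90.9, 53.7 and 70 to 248, 347 and 349 CPM (log2FC 2.14 ± 0.24, adjusted p = 0.000456). Tgtp1 fell from 298, 410.1 and 268 to 91.1, 114 and 140.3 CPM (log2FC -1.5 ± 0.23, adjusted p = 0.00212), though its near-identical neighbour Tgtp2 may share reads with it. Igtp and Iigp1 were not called, at 169, 252 and 308 and 18.6, 41.8 and 55.4 CPM in Tconv, in both cases lowest in replicate 1. Without naive replicate 1 or 3 or Tconv replicate 3, 2 members were called lower.

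The Tconv libraries carried the transcripts of dividing cells. Of 40 mitosis genes, 36 were called higher and 1 lower (median log2FC 5.05), and of 38 DNA replication genes 21 were higher and none lower (median 1.11). Mki67, a marker of cycling cells, had 1.56, 0.92 and 1.04 CPM in naive cells and 52.6, 72.2 and 118 CPM in Tconv (log2FC 6.1 ± 0.4, adjusted p = 3.14e-05). Top2a, the topoisomerase that untangles sister chromatids, rose from 4.52, 2.64 and 4.4 to 74.1, 118 and 179.7 CPM (log2FC 5.01 ± 0.4, adjusted p = 8.29e-05). Cdk1, the kinase that starts mitosis, went from 0.284, 0.5 and 0.324 to 12.6, 17.7 and 33.5 CPM (log2FC 5.83 ± 0.47, adjusted p = 8.89e-05), and its partner cyclin B1, Ccnb1, from 0.662, 0.78 and 0.821 to 14.1, 22.1 and 49.6 CPM (log2FC 5.24 ± 0.52, adjusted p = 0.00022). Among kinases of chromosome segregation, Aurkb rose from 0.118, 0.12 and 0.149 to 12.6, 20.6 and 42.6 CPM (log2FC 7.59 ± 0.59, adjusted p = 7.15e-05) and Bub1 from 0.071, 0.02 and 0.124 to 6.7, 10.8 and 23.9 CPM (log2FC 7.59 ± 0.73, adjusted p = 0.000191). The 3 Tconv libraries were unequal in this respect. In all 40 mitosis genes tested replicate 3 was the highest Tconv library, and in 39 replicate 1 the lowest.

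Smc4, a condensin subunit, was the exception. It had 525, 614 and 556 CPM in naive cells and 177, 186 and 212 CPM in Tconv (log2FC -1.56 ± 0.16, adjusted p = 0.000272). As Smc4 held most of the list's counts in naive cells, the summed CPM of the list rose only from 717, 834 and 750 to 916, 1260 and 2150.

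Of the replication genes, Rrm2, the regulated subunit of ribonucleotide reductase, rose from 5.01, 6.56 and 4.63 to 74.4, 93.2 and 215 CPM (log2FC 4.56 ± 0.44, adjusted p = 0.00021). The origin licensing factor Cdc6 went from 0.615, 0.52 and 0.522 to 7.79, 11.5 and 28.6 CPM (log2FC 4.85 ± 0.54, adjusted p = 0.000407), and thymidine kinase, Tk1, from 0.733, 0.42 and 0.622 to 11.2, 15.9 and 29.4 CPM (log2FC 4.99 ± 0.45, adjusted p = 0.00014). Replicate 3 was again the highest Tconv library in 37 of the 38 genes. By contrast, Mcm2, a subunit of the replicative helicase, was expressed in both groups at 88.7, 58.5 and 94 and 94.1, 103 and 148 CPM (adjusted p = 0.149), as was the sliding clamp Pcna at 147, 229 and 154 and 205, 208 and 235 CPM (adjusted p = 0.315).

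The promoters of these genes are known for a few short elements. The cell cycle genes homology region (CHR, TTTGAA) holds the DREAM and MuvB complexes at genes of G2 and mitosis, often near a CCAAT box, and E2F sites (TTTCCCGC or TTTGGCGC) time the genes of replication. Windows from 250 bases before to 50 after the start site, from RefSeq (GRCm38.p6), were found for 29 of the 36 mitosis genes called higher, and 20 of them (69%) held TTTGAA on either strand, against 18.1% of the 27025 genes with a window. CCAAT was found in 72.4%, against 37.9% of all. For the replication genes called higher, 18 of 21 had a window, of which 5 (27.8%) held one of the E2F motifs, against 1.63% of all. Over the 10265 tested genes with a window (64.9% of those tested) the shares were 12.5% for CHR, 39.3% for CCAAT and 3.12% for E2F. Motifs for other lists were scanned as well. The T-box motif GGTGTGA was in 1 of 16 windows of Th1 genes called higher (6.25%). It was in 2 of 14 windows of cytotoxic genes called higher (14.3%), against 3.41% of the tested genes with a window. These are matches of letters and no evidence of binding. The windows of 4 genes, shown because they hold the motif (Kif11 was chosen after its values were seen), are printed 5′ to 3′ along the gene, with capitals on the CHR of Cdk1 (chr10:69352863-69353162, minus strand), Mki67 (chr7:135716330-135716629, minus strand) and Kif11 (chr19:37376132-37376431, plus strand) and on the E2F motif of Cdc6 (chr11:98907901-98908200, plus strand). In Kif11 and Cdc6 the match reads on the opposite strand.
Cdk1: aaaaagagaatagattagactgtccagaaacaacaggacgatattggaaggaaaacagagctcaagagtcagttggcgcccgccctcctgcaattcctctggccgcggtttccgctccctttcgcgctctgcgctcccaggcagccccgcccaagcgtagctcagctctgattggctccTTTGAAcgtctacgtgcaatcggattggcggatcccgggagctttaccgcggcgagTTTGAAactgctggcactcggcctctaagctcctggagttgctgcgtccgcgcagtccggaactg
Mki67: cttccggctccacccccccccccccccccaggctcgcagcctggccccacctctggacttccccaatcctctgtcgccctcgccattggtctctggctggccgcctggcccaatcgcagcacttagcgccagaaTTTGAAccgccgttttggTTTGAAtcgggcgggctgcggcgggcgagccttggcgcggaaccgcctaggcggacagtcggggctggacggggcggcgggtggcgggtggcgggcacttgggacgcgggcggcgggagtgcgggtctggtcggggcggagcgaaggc
Kif11: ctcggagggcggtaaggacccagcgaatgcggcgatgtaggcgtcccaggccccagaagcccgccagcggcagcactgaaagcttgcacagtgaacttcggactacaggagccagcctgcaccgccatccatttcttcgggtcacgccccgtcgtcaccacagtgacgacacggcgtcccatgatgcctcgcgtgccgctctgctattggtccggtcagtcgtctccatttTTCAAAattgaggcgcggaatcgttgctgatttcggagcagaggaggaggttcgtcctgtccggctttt
Cdc6: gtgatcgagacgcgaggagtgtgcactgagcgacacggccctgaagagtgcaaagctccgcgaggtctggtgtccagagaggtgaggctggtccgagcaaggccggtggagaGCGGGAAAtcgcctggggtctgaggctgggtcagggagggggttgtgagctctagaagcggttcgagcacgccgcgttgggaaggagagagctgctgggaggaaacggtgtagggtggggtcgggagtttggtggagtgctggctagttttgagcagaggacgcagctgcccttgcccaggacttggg
The first match began 71 bases before the start site in Cdk1 (with another at 15), 116 in Mki67 (with another at 98), 19 in Kif11 and 138 in Cdc6. The spindle motor gene Kif11 rose from 1.25, 0.44 and 1.24 CPM to 30.8, 48.9 and 78.8 CPM, in the same order of libraries as Cdk1 and Mki67.

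Of 17 regulators of the cell cycle tested, 6 were called higher and none lower, where 15% and 8.55% of all genes were. Inhibitors were among the members called higher. Cdkn1a, which encodes the CDK inhibitor p21, rose from 2.06, 3.8 and 1.22 to 188, 157 and 72.5 CPM (log2FC 5.87 ± 0.55, adjusted p = 0.000163), highest in replicate 1. Cdkn2c, which encodes p18, went from 3.67, 5.54 and 4.25 to 20.1, 26.6 and 39.3 CPM (log2FC 2.67 ± 0.3, adjusted p = 0.000415). Their target Cdk6 rose from 9.42, 6 and 8.83 to 65.9, 72.9 and 78 CPM (log2FC 3.16 ± 0.22, adjusted p = 4.14e-05). The antiproliferative gene Btg1 had 3586, 4557 and 3556 CPM in naive cells and 2978, 2112 and 1620 CPM in Tconv (log2FC -0.8 ± 0.25, adjusted p = 0.0448, within the limit on size, and -1.06 and called lower without Tconv replicate 1).

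**Figure D3:**
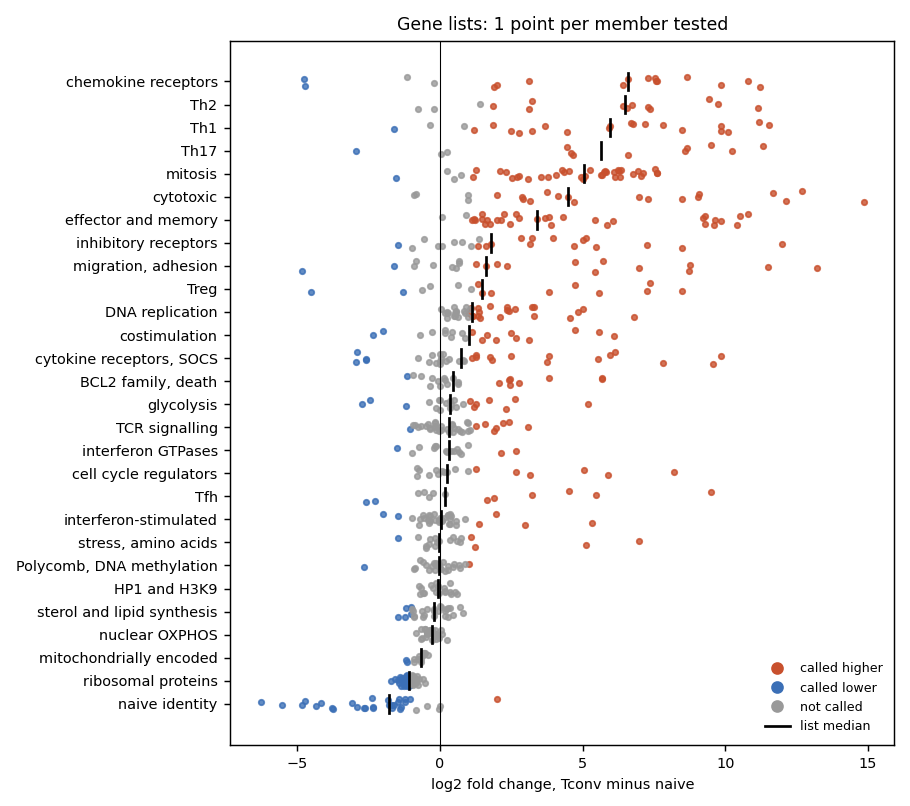
Log2 fold change of every tested member of the 28 gene lists, ordered by the list's median (black bar); red points are called higher, blue points called lower and grey points not called. Chemokine receptors, helper cytokine, mitosis, cytotoxic and effector lists lie to the right, and the ribosomal protein and naive identity lists to the left of 0; values of genes with no naive count depend on the fit.

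Ribosomal protein genes were lower as a group, and here the naive libraries differed among themselves. Of 39 tested, 22 were called lower and none higher (median log2FC -1.08), where 8.55% of all genes were called lower. All 39 had lower levels in each Tconv library than in any naive library, which held for 24.7% of all genes tested. The summed level of the 39 was 20900, 38100 and 21800 CPM in naive cells and 12800, 12500 and 12300 CPM in Tconv. Rps20 fell from 324, 582 and 352 to 125, 124 and 131 CPM (log2FC -1.73 ± 0.24, adjusted p = 0.00129), Rpl12 from 294, 507 and 316 to 152, 135 and 130 CPM (log2FC -1.42 ± 0.24, adjusted p = 0.00281) and Rps19 from 939, 2186 and 1011 to 492, 457 and 450.5 CPM (log2FC -1.56 ± 0.33, adjusted p = 0.00874). Naive replicate 2 was the highest library in all 39 genes. That library also held more of the genes with short exons, by the merged length of all annotated exons. Relative to the other naive libraries its median log2 level was 0.5 higher over the 2447 genes with the shortest exons (median 2773 bases). The level differed by -0.3 over the 2444 with the longest (median 12132 bases). The same measures lay between -0.04 and 0.05 in the Tconv libraries. Without naive replicate 2 the median was -0.74 and 5 members were called lower, and without Tconv replicate 2 or 3 13 were called in each case.

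Mitochondrial transcripts moved the same way to a lesser extent. Of 15 mitochondrially encoded genes 2 were called lower and none higher (median log2FC -0.65), where 8.55% of all genes were called lower. All 15 were lower in each Tconv than in each naive library, as were 24.7% of all genes tested. The ribosomal RNA mt-Rnr1 went from 364, 527 and 342 to 184, 190.3 and 169.6 CPM (log2FC -1.18 ± 0.2, adjusted p = 0.00336) and mt-Nd2 from 432, 843 and 430 to 269, 264 and 233 CPM (log2FC -1.15 ± 0.28, adjusted p = 0.0168). Naive replicate 2 was the highest for both, and without it neither was called (log2FC -0.96 and -0.75). Without naive replicate 3 the list had 4 members called lower, and without Tconv replicate 2 or 3 it had 1. None of 28 nuclear genes of oxidative phosphorylation was called, with a median log2FC of -0.3, or 0.04 without naive replicate 2. Their summed level was 4930, 8330 and 5170 CPM in naive cells and 5050, 4830 and 5300 CPM in Tconv.

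**Figure D4:**
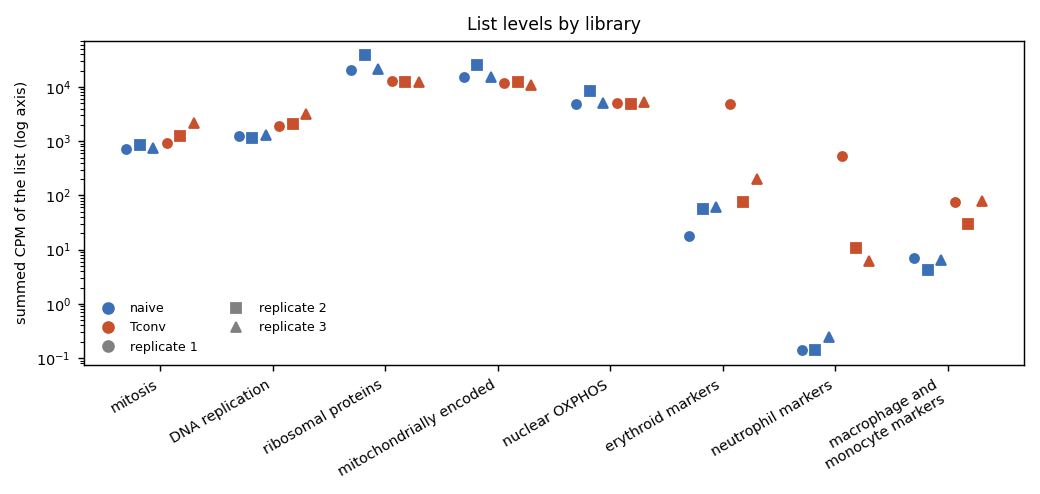
Summed CPM (log axis) of 5 gene lists and 3 marker lists in each library; blue marks are naive and red marks Tconv libraries, and the symbol gives the replicate. Naive replicate 2 stands above the other naive libraries for ribosomal protein and mitochondrial lists, Tconv replicate 3 is highest for mitosis and DNA replication, and Tconv replicate 1 is highest for erythroid and neutrophil markers.

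Glycolysis genes split, with 7 of 22 called higher and 3 lower, where 15% and 8.55% of all genes were. Genes of entry steps were among those that rose: the glucose transporter Slc2a3 went from 65.7, 44.7 and 59 to 253, 318 and 281 CPM (log2FC 2.33 ± 0.2, adjusted p = 0.000113) and hexokinase 2, Hk2, from 0.497, 0.18 and 0.299 to 11.3, 14 and 9.98 CPM (log2FC 5.18 ± 0.4, adjusted p = 6.99e-05). Hexokinase 1, Hk1, was not called. Its mean level was 17.7 CPM per kb of exon in naive cells and 30.8 in Tconv, against 1.42 for Hk2 in Tconv. The oxygen-sensing factor Hif1a rose from 188, 131 and 193 to 574, 652 and 445 CPM (log2FC 1.71 ± 0.23, adjusted p = 0.000953). Most enzymes of the trunk were not called, among them Pkm (897, 996 and 931 and 953, 896 and 914 CPM, adjusted p = 0.89) and Ldha (924, 1444 and 888 and 1148, 1049 and 1071 CPM, adjusted p = 0.988). Ldhb, the subunit that favours pyruvate, fell from 42.1, 71.2 and 42 to 7.48, 7.9 and 8.18 CPM (log2FC -2.72 ± 0.25, adjusted p = 0.000152), and Pdk1, which keeps pyruvate out of mitochondria, from 386, 235 and 445 to 68.8, 66.3 and 59.6 CPM (log2FC -2.45 ± 0.25, adjusted p = 0.00027).

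Of 28 genes of sterol and lipid synthesis, 5 were called lower and none higher, where 8.55% of all genes were called lower and 15% higher. Sqle, an enzyme of the later steps of cholesterol synthesis, had 58, 70 and 63.5 CPM in naive cells and 53.6, 40.9 and 34.5 CPM in Tconv (log2FC -0.57 ± 0.19, adjusted p = 0.0584). Without naive replicate 2 or Tconv replicate 2, 3 members were called lower, and without Tconv replicate 3 only 1. Among 19 genes of stress and amino acid supply, 4 were called higher and 1 lower (median log2FC -0.03). This share is near the 23.5% called over all genes. Atf3, a stress-induced factor, rose from 0.994, 1.2 and 0.572 to 194, 121 and 34.2 CPM (log2FC 6.96 ± 0.71, adjusted p = 0.000263), highest in replicate 1, and Asns, the asparagine synthetase, from 0.0946, 0.28 and 0.199 to 8.88, 5.61 and 5.73 CPM (log2FC 5.1 ± 0.44, adjusted p = 0.000121). Atf4, the regulator of this response, had 244, 250.5 and 264 and 257, 215 and 197 CPM (adjusted p = 0.42).

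In the BCL2 family and death genes 8 of 21 members were called higher and 1 lower, with both pro-survival and pro-death members among the first. Over all genes tested 15% were called higher and 8.55% lower. Bcl2a1d, a pro-survival member with near-identical copies among which reads are divided, rose from 4.38, 9.86 and 5.15 to 97.3, 96 and 78.1 CPM (log2FC 3.8 ± 0.33, adjusted p = 0.000121). Pmaip1, which encodes the pro-death protein NOXA, rose from 4.04, 4 and 1.99 to 184, 193 and 142 CPM (log2FC 5.69 ± 0.33, adjusted p = 1.88e-05). Bcl2 itself had 304, 209.7 and 279 CPM in naive cells and 268, 301 and 232 CPM in Tconv, with overlap (log2FC 0.02 ± 0.19, adjusted p = 0.96). Bcl2l11, which encodes its antagonist BIM, had 87.5, 50 and 82.1 and 64.2, 67.3 and 50.8 CPM (adjusted p = 0.422). The member called lower, the death receptor Tnfrsf10b (adjusted p = 0.0155), was not called without naive replicate 1 (0.0548), Tconv replicate 2 (0.0647) or Tconv replicate 3, and without naive replicate 3 the list had 2 members called lower.

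Few chromatin genes were called. Of 19 genes of HP1 proteins and of the H3K9 methylation that they bind, none was called (median log2FC -0.06), against 23.5% of all genes. Cbx3, which encodes HP1γ and is floxed but intact here, had 102, 191 and 110.4 CPM in naive cells and 82.1, 84.5 and 102 CPM in Tconv (log2FC -0.59 ± 0.26, adjusted p = 0.122). Cbx5, which encodes HP1α, had 22, 21.1 and 21.2 and 21.5, 26.9 and 35.8 CPM (log2FC 0.39 ± 0.21, adjusted p = 0.193), and Cbx1, which encodes HP1β, 45.3, 84.2 and 45.3 and 30, 34.9 and 42.4 CPM (log2FC -0.7 ± 0.28, adjusted p = 0.0893). The methyltransferase gene Suv39h1 was lower in each Tconv library, at 32.2, 30.1 and 36.8 against 48.2, 46.2 and 52.4 CPM, by less than the limit on size (log2FC -0.57 ± 0.15, adjusted p = 0.0241). Of 25 Polycomb and DNA methylation genes, 1 was called higher and 1 lower. Tet1, a dioxygenase that oxidises methylcytosine, fell from 30.2, 16.8 and 30.6 to 2.73, 3.39 and 6.21 CPM (log2FC -2.65 ± 0.38, adjusted p = 0.00138). The Polycomb methyltransferase Ezh2 was just past the limits (23.7, 30.2 and 24.3 to 42.7, 47.9 and 67.3 CPM, log2FC 1.01 ± 0.21, adjusted p = 0.00862), and within 1 without naive replicate 1 (0.94), naive replicate 3 (0.96) or Tconv replicate 3 (0.8). Without naive replicate 3 or Tconv replicate 3 none of the list was called higher, and without naive replicate 2 there were 2 called lower. The maintenance methyltransferase Dnmt1 was not called (132, 59.5 and 143 and 119, 138 and 210.4 CPM, adjusted p = 0.332).

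The same transfer was made with WT cells of the HP1a line, taken from Hp1a+/+ littermates of a line in which CMV-cre had excised a floxed Hp1a allele. Its 3 Tconv and 3 naive libraries share none with those above. There, 2067 of the 16027 that were tested (12.9%) rose and 1635 (10.2%) fell past the same limits. Of the genes tested in both lines, 1633 were called higher in both, which is 75.1% of those called in HP1g WT and 83.3% of those called in HP1a WT. For genes called lower the shared number was 821, or 61.9% and 54% of each. The log2FC correlated over 15365 genes (Pearson's r = 0.893, a description, as genes are not independent and each line's fold changes share their libraries).

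The sizes of single genes in the other line were close for some genes and apart for others. Its log2FC was 12.55 for Ifng, 10.23 for Tbx21, 10.74 for Gzmb, 12.21 for Ccr2, 8.98 for Bhlhe40, -4.12 for Ccr7 and -2.5 for Lef1. For Zeb2 it was 6.99, against 10.51 in HP1g WT, for Lilrb4a 14.81 against 12.5 and for Il1r1 11.07 against 8.6, differences between the lines that did not pass the test (adjusted p = 0.206, 0.24 and 0.383). By list, 37 of the mitosis genes were called higher there, 19 of the Th1 and cytotoxic genes each, 31 of the effector genes, and 21 of the naive identity genes lower. The ribosomal protein genes had a median log2FC of -0.49 with 1 called lower, against 22 here. For none of the 39 did the difference between the lines pass the test (lowest adjusted p = 0.229). Called in opposite directions were 7 genes that were higher in HP1g WT and 1 that was lower. Of the 7, 5 are erythroid markers, which moved with Tconv replicate 1 as given above (Hba-a1 at 932.9, 14.8 and 37.2 CPM in Tconv and 1.75, 9.5 and 8.76 CPM in naive cells).

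Tested directly as the interaction of line and condition over the 12 WT libraries, the change on activation differed between the lines in 2 of 17107 genes (0.0117%, or 0.00585% in each direction), with 3350 genes at an unadjusted p under 0.05. One was Trim16, a ubiquitin ligase of damaged membranes (chr11:62711057-62741634). It rose from 11.8 ± 2.51 to 79 ± 13.9 CPM in HP1g WT (mean ± SD, n = 3) and from 0.709 ± 0.158 to 47.3 ± 9.06 CPM in HP1a WT, a difference of log2FC, HP1g minus HP1a, of -3.3 ± 0.31 (adjusted p = 0.00257). The naive levels differed more between the lines than the Tconv levels. DESeq2 called 250 genes for this difference. Time of transfer and sequencing may also differ between the lines and cannot be told apart from the line.

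KO cells of the HP1g line, which lack HP1γ in T cells through Cd4-cre, were also transferred. Between their 3 Tconv and 3 naive libraries 2506 of 15912 genes (15.7%) were called higher and 1162 (7.3%) lower. The interaction of genotype and condition called 4 of 17024 genes (0.0235%, with 0.00587% higher and 0.0176% lower in WT), with 1344 at an unadjusted p under 0.05, and 105 genes by DESeq2. Of the 4, the naming rule takes Casp1, the protease that matures IL-1β and IL-18 (chr9:5298508-5307290). It rose from 8.98 ± 2.4 to 147 ± 14.5 CPM in WT and from 2.93 ± 0.534 to 178 ± 7.77 CPM in KO cells, a difference of log2FC, WT minus KO, of -1.89 ± 0.27 (adjusted p = 0.0467). The call of Casp1 was at the edge of the threshold, and leaving out single libraries gave 0 to 12 genes called for this interaction.

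**Figure D5:**
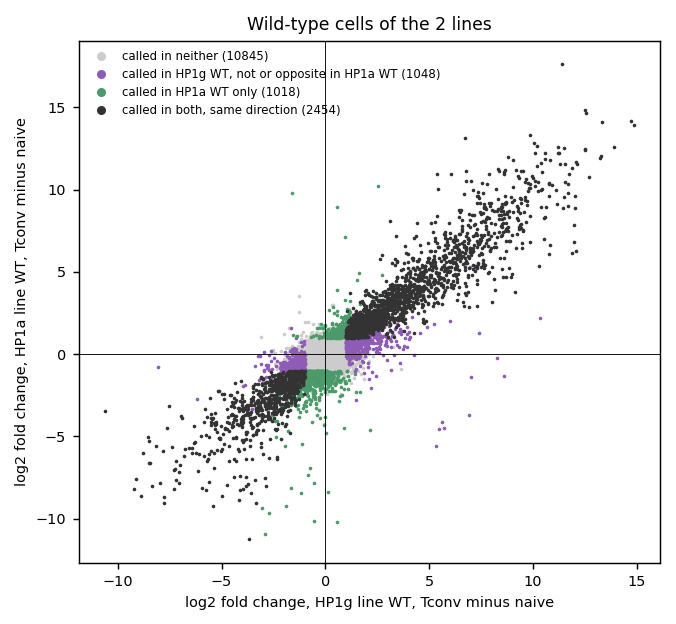
Log2 fold change of Tconv against naive WT cells in the HP1g line (horizontal axis) and in the HP1a line (vertical axis), 1 point for each of the 15365 genes tested in both. Of these, 2454 were called in the same direction in both lines, 1048 in HP1g WT but not or in the opposite direction in HP1a WT, 1018 in HP1a WT only and 10845 in neither.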

How the data were processed

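RNA of naive and Tconv libraries was amplified with SMART-Seq v4 PLUS and sequenced as paired ends. Through nf-core/rnaseq, reads were trimmed (Trim Galore, Cutadapt), mapped with STAR (GRCm39, Ensembl gene models) and quantified with Salmon by the authors. The deposited values are estimated counts per gene of Salmon, neither scaled nor filtered. Salmon divides reads that match several genes, so 82.9% of the values were whole, and genes with near-identical copies are less certain.

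Columns were assigned through the sample titles. Estimated counts of 56748 genes were rounded and tested with edgeR 4.0.16 in R 4.3.3 (TMM, filterByExpr, glmQLFit with robust estimation, glmQLFTest), with only the 6 libraries of the comparison or, for differences between lines or genotypes, 12. Calls needed a Benjamini-Hochberg adjusted p (all genes tested) under 0.05 and a log2FC beyond 1 in size, as in the study, whose tool DESeq2 (1.42.0) was run as an alternative. After a mean, ± gives the SD of 3 libraries, and after a log2FC its standard error. Intervals of ratios are exact at 95% and, like the floor of 3 counts, cover counting error only.

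The libraries compared and the 28 gene lists were chosen with earlier results of these data known, so counts of list members are descriptions. Genes were named where they were key members of a list, where they were among up to 4 called members with the highest and 4 with the lowest log2FC of a list (mean of at least 5 CPM in the higher group), or among the 12 highest and 12 lowest log2FC of all called genes without overlap, leaving out receptor segments, predicted genes, RIKEN clones and pseudogenes. For differences, up to 5 in each direction were named. Some genes that this rule takes are not reported here. Of 714 listed genes 710 were matched. Positions and types came from GENCODE gene models (GRCm39), which lacked 731 IDs, and promoter windows were matched by symbol to RefSeq (10265 of 15812 genes tested). Alternatives were DESeq2, RLE size factors, library totals alone, no filter on low counts, no limit on fold change, a joint fit of the HP1g line, a block on replicate number, and each library left out. The fits were tested on simulated data with known changes.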

Additional observations from a re-analysis of the deposited data

Results flagged for a closer look

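In 6 genes the change on activation differed between the wild-type cells of the HP1g line and another group, by the interaction term of edgeR. Against HP1a WT, the difference of the log2 fold change was -3.3 for Trim16 (adjusted p = 0.00257) and 4.25 for the long non-coding RNA gene Gm43305 (adjusted p = 0.00677), which went from 13 ± 7.14 to 59.1 ± 12.8 CPM in HP1g WT and from 27.6 ± 4.56 to 6.59 ± 1.58 CPM in HP1a WT (mean ± SD, n = 3). Gm43305 lies at chr14:54529898-54534949 in GRCm39. For both genes line, time of transfer and sequencing cannot be told apart. Against HP1g KO, the difference was -1.89 for Casp1 (adjusted p = 0.0467), -6.16 for Myo5b, 3.48 for Gm19951 and -2.71 for Gm50287 (adjusted p = 0.024 each).

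The last 3 are low. Myo5b had 0.338 ± 0.0449 CPM in naive and 0.014 ± 0.0122 CPM in Tconv of WT mice, and 0.295 ± 0.0483 and 1.02 ± 0.297 CPM in KO mice. Gm50287 had 2.14 ± 0.332 and 0.553 ± 0.0454 CPM in WT, and 2.22 ± 0.23 and 3.76 ± 0.588 CPM in KO. Gm19951 had 3.69 ± 1.04 and 7.05 ± 0.907 CPM in WT, and 25.7 ± 6.05 and 4.39 ± 1.94 CPM in KO. Gm43305, Myo5b, Gm50287 and Gm19951 were named only after seeing that they were called. Samples far from their group were not looked for by Dixon's test, since groups held 3 libraries.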

How the results depend on the processing

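Genes called higher numbered 2192 to 2392 when each library was left out and 2323 to 2833 under the other alternatives, and genes called lower 1004 to 1308 and 1232 to 1540, apart from the setting without a limit on fold change, with 2084 lower. No scaling moved the median log2FC of all genes by more than 0.05. Equally numbered libraries of the 2 groups did not deviate together (r = -0.058, -0.139 and -0.011), so the numbers do not pair them. With the replicate block 2463 genes were called higher and 1232 lower, 1 differed between the lines and 0 between the genotypes. The line difference called 2 genes, and 250 with DESeq2, 131 without the filter on low counts and 2 to 24 when each library was left out (24 without naive HP1a WT replicate 1). The genotype difference called 4 genes, 105 with DESeq2, 32 without the filter and 0 to 12 when each library was left out (12 without Tconv HP1g WT replicate 3, 0 without Tconv WT replicate 1 or 2, Tconv KO replicate 1 or any naive KO library). These difference counts depend on the tool and the filter, and the cause was not tested. Leaving out each library for the gene lists was chosen after seeing the data. Members called lower numbered 5 to 31 for ribosomal proteins and 1 to 6 for sterol and lipid synthesis over the left-out libraries. Of 228 named genes, none that was called in the main fit or the alternative reversed direction between the fits. A change of sign in a gene called in neither fit was not counted. The calls of the named genes were the same in 2874 of 2963 fits. At least 1 change of call was seen in 37 genes, most often without Tconv replicate 2 (15 lost) or naive replicate 2 (13 lost, 2 gained). Depth limits genes below 0.0746 CPM, the level of 3 counts in the shallowest library.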
